A study of Mus musculus with 7 samples.

Results

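The Myc and Pvt1 locus was taken as the stretch of mouse chromosome 15 from the start of Myc to the end of Pvt1 in the mm9 annotation, with 500 kb added on each side (chr15:61316946-62709651, 1392.71 kb). Every CTCF or Rad21 peak that overlapped it was a member, which gave 26 of 68667 CTCF peaks and 45 of 68656 Rad21 peaks, or 71 of 137323 in all. The peaks came from ChIP-seq of liver of female Crl:CD1(ICR) (CD-1) mice aged 8 weeks, an outbred stock, with 4 CTCF libraries and 3 Rad21 libraries from individual livers. The labels give no genetic change or treatment, and the window was compared with chromosome 15 and the autosomes of the same 2 lists. The libraries of each antibody were pooled before peaks were called, so no value below has an error between mice and no test between groups was possible. The lists hold no expression values, so the liver label was not checked against marker genes.

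Myc encodes a transcription factor that drives cell growth and division, and it is kept low in resting hepatocytes. Pvt1 is a long noncoding RNA gene next to Myc, on the same strand. Enhancers within Pvt1 are known to contact the Myc promoter in several tissues, and the Pvt1 promoter can compete with it for them. CTCF is a zinc finger protein that binds a long, non-palindromic motif. Cohesin, a ring complex of which Rad21 is a subunit, extrudes loops of DNA and tends to stop where CTCF is bound, most often at a pair of motifs that point toward each other. Sites where cohesin and CTCF overlapped by at least 1 bp are called shared or CAC (cohesin-and-CTCF) sites here. Rad21 peaks without a CTCF peak are cohesin-only or CNC (cohesin-non-CTCF) sites, and CTCF peaks without a Rad21 peak are Lone CTCF sites. The authors gave these names to sites that differed between the sexes, by overlap with peaks of individual libraries. The classes here come from pooled lists and need not match theirs.

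The CTCF motif occurred at 3 of the 26 CTCF peaks of the locus. It was called with a matrix 20 bp wide, learned on the even-numbered autosomes and therefore not on chromosome 15, whose most frequent bases read GTGGCCACCAGGGGGCGCTA. A motif had to lie within 100 bp of the summit and score at least 14.2 bits, which 1% of flanking background windows reached. The 3 motif sites are printed because they give the locus its orientation. Each is written along the strand of its motif, which is in capitals, with 20 bp of mm9 on either side.
Upstream of Myc, plus strand, chr15:61814962-61815021: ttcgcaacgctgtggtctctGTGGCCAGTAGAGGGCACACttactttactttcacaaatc
Farther upstream, minus strand, chr15:61773928-61773987: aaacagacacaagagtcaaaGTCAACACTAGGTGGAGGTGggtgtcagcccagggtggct
Downstream of Pvt1, minus strand, chr15:62634504-62634563: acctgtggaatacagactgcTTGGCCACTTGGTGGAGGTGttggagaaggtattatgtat
The motif just upstream of Myc scored 22.1 bits and matched the consensus at 14 of 20 positions. The other two scored 15.4 bits (−43.0 kb from the Myc transcription start site, or TSS, where minus means upstream) and 15.8 bits (818 kb from it). The Myc motif, on the plus strand, and the distal motif, on the minus strand, stood 819.542 kb apart and pointed toward each other, with Myc and Pvt1 between them. The motif at −43.0 kb pointed away from the Myc motif, 41.034 kb to its right. Contacts between these sites were not measured here.

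**Figure D1:**
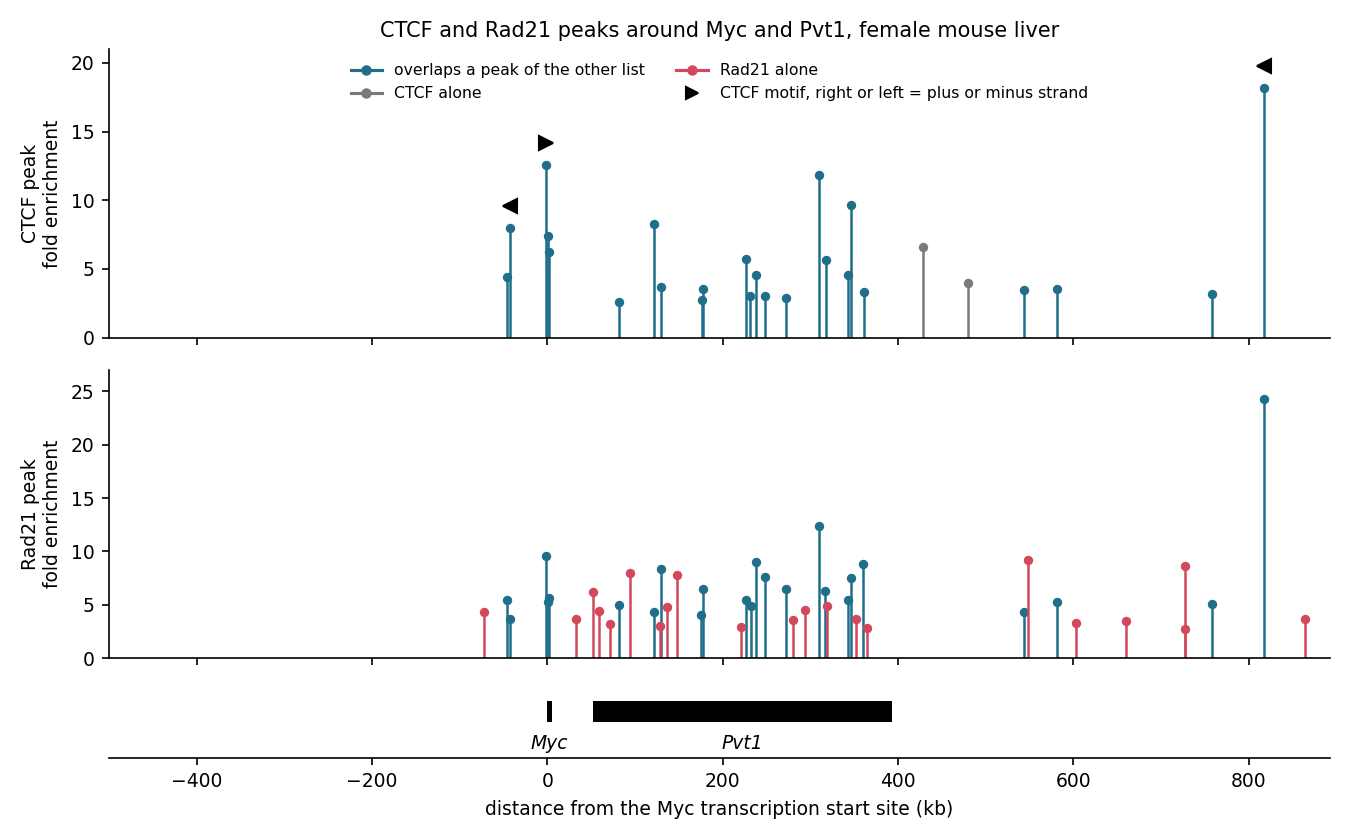
Fold enrichment of every CTCF peak (upper) and Rad21 peak (middle) against distance from the Myc TSS in kb, with the 2 genes below. Blue peaks overlap a peak of the other list, grey and red peaks do not, and triangles give the strand of the 3 CTCF motifs. The left part of the window holds no peak, Pvt1 holds 15 CTCF peaks from 2.61-fold to 11.8-fold, and the highest fold enrichment in the locus stands at 818 kb for both factors.

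CTCF peaks of the locus nearly all carried cohesin, while many of its Rad21 peaks carried no CTCF. Of the 26 CTCF peaks, 24 (92.3%, 95% Wilson interval 75.9 to 97.9%) overlapped a Rad21 peak, against 73.8% over the autosomes. Of the 45 Rad21 peaks, 21 (46.7%, 32.9 to 60.9%) overlapped no CTCF peak, against 26.6% over the autosomes. Of the CTCF peaks, 3 (11.5%, 4.0 to 29.0%) had a motif, against 44.5% over the autosomes. At the 5% background threshold they were 6 (23.1%) against 62.7%. Among shared CTCF peaks the shares at the 1% threshold were 12.5% and 46.0%. These intervals cover counting error only. The peaks are neighbours in pooled lists, and 15 of the 26 CTCF peaks lie in Pvt1, so the intervals are no test against the autosomes. Peaks of at least 5-fold enrichment in both lists were also compared. The share of Rad21 peaks without such a CTCF peak was then 65.2% of 23 in the locus and 16.3% over the autosomes. Under the same filter the share of CTCF peaks with cohesin was 72.7% of 11 in the locus and 70.3% over the autosomes, so the difference in that share was lost. With a minimum −log10 q of 10 it was 78.6% of 14 against 71.4%. Of the 18 shared Rad21 peaks of the locus with at least 5-fold enrichment, 10 (55.6%) met a CTCF peak under 5-fold, against 11.5% over the autosomes. These 10 are part of the 65.2%, although a CTCF peak is listed at each of them.

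Peaks were spread unevenly. The window held 1.87 CTCF peaks per 100 kb, below the 2.78 of chromosome 15 and the 2.71 of the autosomes, and 3.23 Rad21 peaks per 100 kb, above their 2.80 and 2.72. Pvt1 held 4.41 CTCF and 8.23 Rad21 peaks per 100 kb. In the 500 kb upstream of Myc the densities were 0.600 and 0.800, and in the 500 kb downstream of Pvt1 they were 1.2 and 2.0. No peak of either list fell in a stretch of 459.473 kb that ended 71.9 kb upstream of Myc (chr15:61285534-61745006), of which 428.061 kb lay inside the window. Of 83600 gaps between neighbouring peaks on the autosomes, 578 were longer, and the median gap was 8.83 kb.

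**Figure D2:**
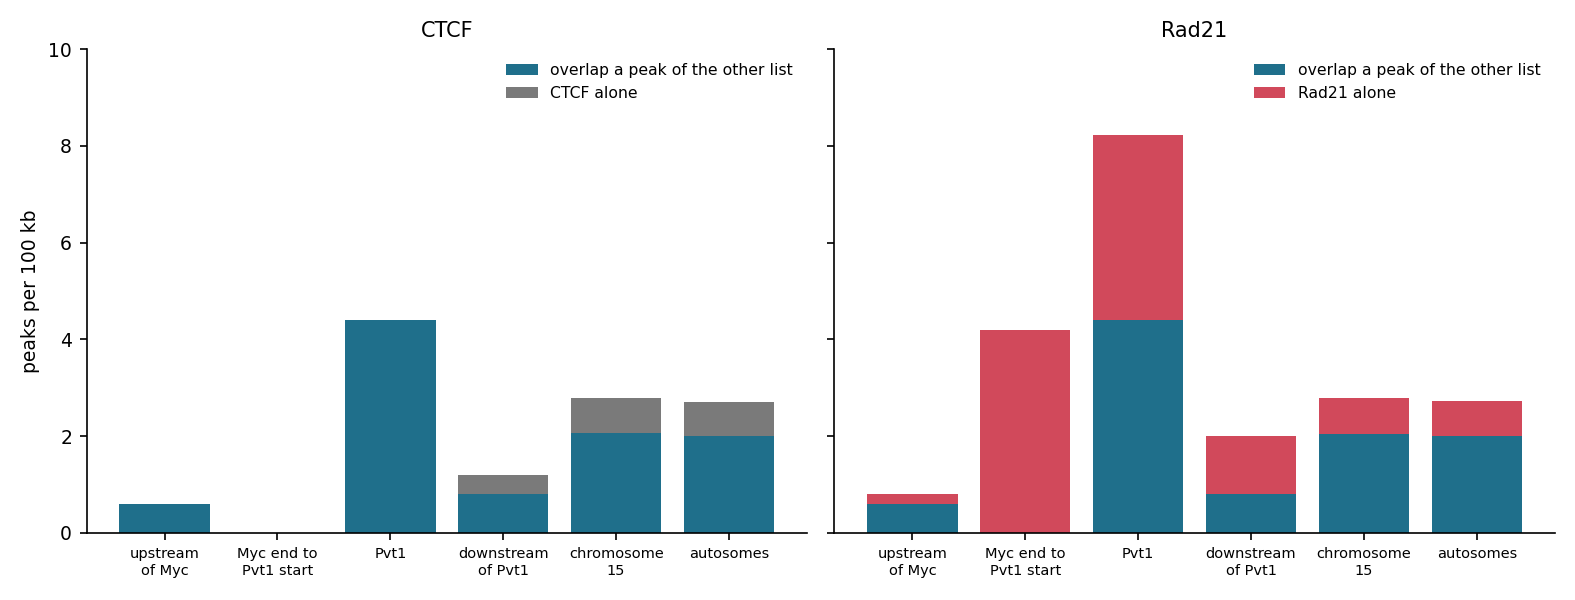
Peaks per 100 kb in the CTCF list (left) and the Rad21 list (right) for 4 stretches of the locus, chromosome 15 and the autosomes, split into peaks that do and do not overlap the other list. Pvt1 stands above the autosomes in both lists (4.41 against 2.71 for CTCF and 8.23 against 2.72 for Rad21), and the stretch between the genes holds Rad21 peaks alone.

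Myc (ENSMUSG00000022346.8) spans chr15:61816946-61821929 on the plus strand, and 3 shared sites lay within 5 kb of its TSS. The site upstream of the promoter had its CTCF summit at −1995 bp (chr15:61814757-61815173, intergenic) with a fold enrichment of 12.6 and a −log10 q of 285. Its Rad21 peak (chr15:61814780-61815213) had a fold enrichment of 9.59 and a summit 23 bp away. These are the 74.0 and 77.4 percentiles of the autosomal CTCF and Rad21 lists. The site carries the plus-strand motif printed above, which points into Myc and toward Pvt1.

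The other two sites at Myc lay inside the gene. The first had its CTCF summit at 252 bp and its Rad21 summit at 267 bp from the TSS, in the first, untranslated exon of 4 transcripts, with fold enrichments of 7.43 and 5.27. The second lay at 1746 and 1757 bp, with fold enrichments of 6.27 and 5.68. In the longer Myc transcripts it falls in the first intron, while transcript Myc-003 has an untranslated exon there. The exon 1 site had no match to the CTCF motif above 1.96 bits. The best match in the second site scored 11.9 bits, under the 1% threshold but over the 9.87 bits that 5% of background windows reached, and reads TTCTCCTTCAGGTGGCGCAA on the plus strand (chr15:61818676-61818695). Between the end of Myc and the start of Pvt1, over 47.612 kb, no CTCF peak was listed.

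Fold enrichment ranked these 3 sites lower than their fragment counts did. It is the summit pileup divided by a local background, with 1 added to each, and both can be recovered from the fold enrichment and the p-value of each peak, a measure added after the data were seen. The CTCF summit at −1995 bp rested on a pileup of 402 fragments over a background of 31.1, and its Rad21 summit on 369 over 37.6. By pileup these peaks ranked at the 95.1 and 97.7 percentiles, well above their ranks by fold enrichment. The exon 1 site had pileups of 237 (CTCF) and 205 (Rad21), and the site at 1746 bp had 198 and 223.

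The backgrounds of all 3 sites were 30.7 to 31.1 fragments for CTCF and 37.6 to 38.5 for Rad21, where the autosomal medians were 9.22 and 8.03. The Myc peak backgrounds ranked at the 97.6 percentile (CTCF) and the 99.8 percentile (Rad21) at −1995 bp. The high background was local. At the site at −43.0 kb it was 6.28 for CTCF and 5.03 for Rad21, the lowest values found where a whole-number pileup was recovered, and at the Rad21 peak 32.4 kb downstream of the Myc TSS it was again 5.03. No input control is named in the sources used here, in which case the background is taken from the ChIP reads themselves and the reads of the 3 neighbouring peaks enter it. The part that these reads, open chromatin or copy number had in it was not tested.

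**Figure D3:**
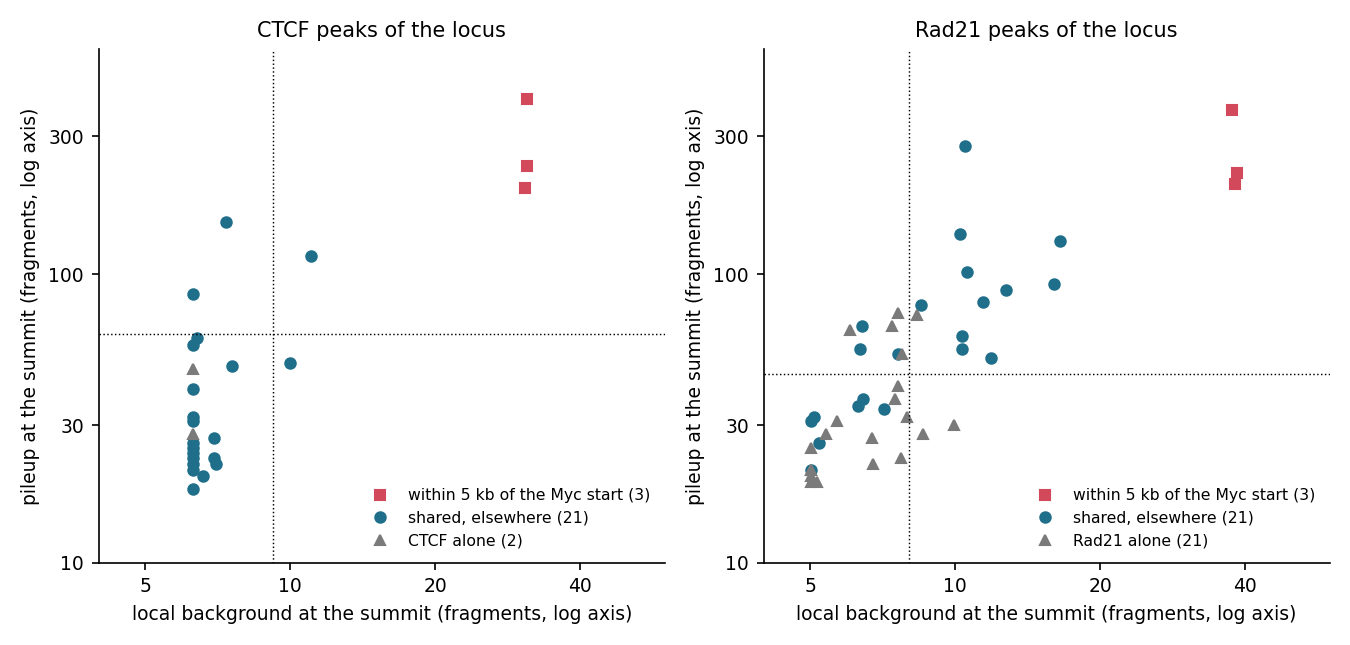
Summit pileup against local background, both in fragments on log axes, for the CTCF peaks (left) and Rad21 peaks (right) of the locus, with dotted lines at the autosomal medians. The 3 peaks near the Myc start stand apart in both panels, with CTCF backgrounds from 30.7 to 31.1 and Rad21 backgrounds from 37.6 to 38.5.

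Pvt1 (ENSMUSG00000072566.3, annotated as lincRNA) spans chr15:61869542-62209651 on the plus strand, 340.11 kb, and starts 52.596 kb downstream of the Myc TSS. It held 15 CTCF peaks, all of them shared, and 28 Rad21 peaks, of which 15 were shared and 13 cohesin-only. None of the 15 CTCF peaks had a motif (Wilson interval up to 20.4%), and none had one at the 5% threshold either. Their median fold enrichment was 3.71 (order-statistic 95% interval 3.02 to 5.71), at the 23.6 percentile of the autosomal CTCF list. The 28 Rad21 peaks had a median of 5.20 (4.47 to 6.52), at the 53.3 percentile of the Rad21 list. Just 1 of the 3 Pvt1 transcripts reaches the annotated end. The other two stop after about 213 kb, and up to there Pvt1 held 9 CTCF and 17 Rad21 peaks.

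Pvt1 was set beside other long genes, with limits of length and peak number chosen after its values were seen. Of 954 autosomal genes of at least 200 kb, 40 had more Rad21 peaks per 100 kb, 41 had more cohesin-only peaks (3.82 in Pvt1 against a median of 0.368), and 161 had more CTCF peaks. Among the 319 of these genes with at least 10 CTCF peaks, Pvt1 was the single gene in which no CTCF peak had a motif, where the median share was 38.5% and the next lowest 3.57%. Among 544 genes of at least 100 kb there were 6 such genes, and another of them held 20 CTCF peaks. At the 5% motif threshold Pvt1 was the only one of the 6. With a minimum of 5 CTCF peaks, 5 of 589 genes of at least 200 kb had none with a motif, and 2 had none at the 5% threshold. Up to the end of its shorter transcripts Pvt1 held 9 CTCF peaks, under the limit of 10, so its place here rests on the longest transcript.

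Within Pvt1 the Rad21 peak was the stronger of the pair at almost every shared site, judged by its rank in its own list. The Rad21 percentile exceeded the CTCF percentile at 14 of 15 sites, with a median difference of 39.5 points. Over the whole locus this held at 21 of 24 shared sites, with a median difference of 22.0 points. Over the autosomes it held at 55.6% of shared sites with a median of 1.88 points, and at 62.7% of those without a motif with a median of 5.93 points. The lists come from pools of different size, so single sites were compared by these ranks and not by fold enrichment, and the 5-fold limit used above need not mean the same in both lists.

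**Figure D4:**
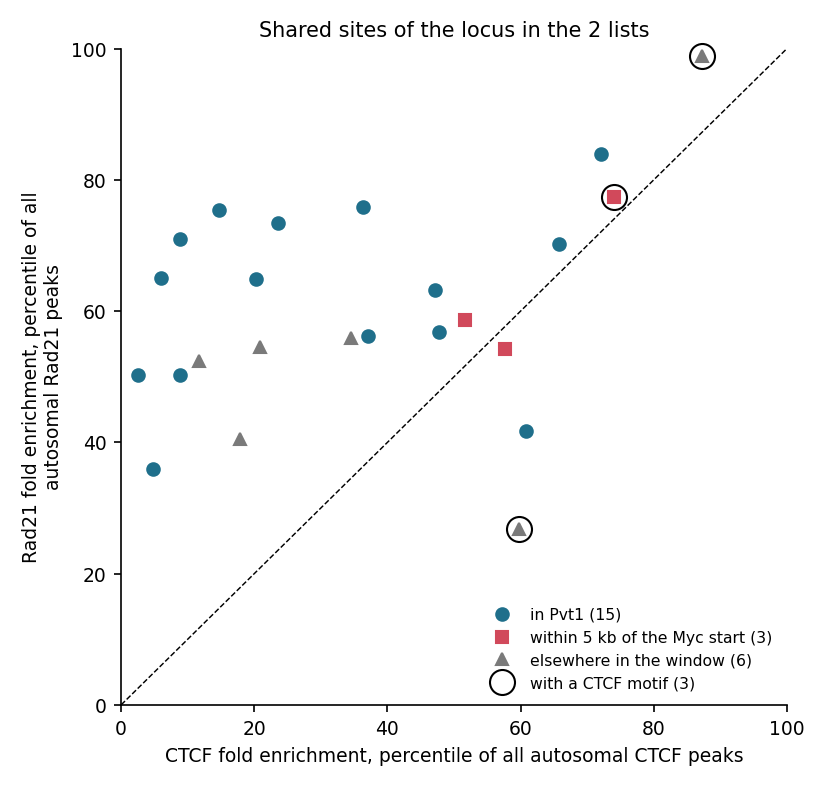
Each of the 24 shared sites of the locus by the percentile of its CTCF fold enrichment (x axis) and of its Rad21 fold enrichment (y axis) in the autosomal list, with a dashed line where they are equal. Of the 15 Pvt1 sites, 14 lie above the line, and circles mark the 3 sites with a CTCF motif, none of them in Pvt1.

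The 5′ end of Pvt1 held mostly cohesin-only sites. A Rad21 peak spanned the Pvt1 TSS (chr15:61869276-61870023), with a fold enrichment of 6.18, a pileup of 53 and 40 CpG dinucleotides in its 748 bp. Its summit lay 153 bp upstream of the Pvt1 TSS. The sequence around it (chr15:61869289-61869489, plus strand) is shown because it is the only gene start in the locus with a Rad21 peak and no CTCF peak. It holds no match to the CTCF motif above 5.04 bits.
Pvt1 promoter, Rad21 summit: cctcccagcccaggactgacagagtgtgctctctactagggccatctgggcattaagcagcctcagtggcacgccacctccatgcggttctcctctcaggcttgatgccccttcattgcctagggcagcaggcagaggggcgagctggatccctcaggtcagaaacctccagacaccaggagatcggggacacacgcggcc
All other peaks of Pvt1 had their summits in its introns. Cohesin-only summits followed at 58.4 kb (fold enrichment 4.47), 71.1 kb (3.24) and 94.5 kb (7.99) from the Myc TSS. The shared site among them, at 81.9 kb, had the lowest CTCF fold enrichment of the locus, 2.61 with a pileup of 18 fragments, under a Rad21 peak of 4.95.

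The next stretch, from 121 to 178 kb, alternated between the classes. The site at 121 kb was the exception in Pvt1, since its CTCF peak (fold enrichment 8.24, 60.8 percentile) ranked above its Rad21 peak (4.34, 41.7 percentile), with summits 154 bp apart. At 130 kb the order was the usual one, with 3.71 for CTCF (23.6 percentile) and 8.31 for Rad21 (73.5 percentile), and a cohesin-only peak of 3.03 lay directly beside it at 129 kb. Cohesin-only peaks of 4.78 and 7.83 followed at 136 and 148 kb. A pair of shared sites at 176 and 177 kb had CTCF fold enrichments of 2.77 and 3.53 and Rad21 fold enrichments of 4.04 and 6.48.

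Between 221 and 273 kb, 5 shared sites followed a weak cohesin-only peak at 221 kb (fold enrichment 2.97). The site at 227 kb had fold enrichments of 5.71 (CTCF) and 5.48 (Rad21). At 232 kb they were 3.02 and 4.94, and at 238 kb 4.54 and 9.04. Wide differences in rank came next. At 248 kb a CTCF peak of 3.02 (8.88 percentile) met a Rad21 peak of 7.63 (71.0 percentile), and at 273 kb one of 2.87 (6.03 percentile) met one of 6.52 (65.1 percentile).

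The 3′ part of Pvt1 held its highest fold enrichment of each factor, at 310 kb. Cohesin-only peaks of 3.62 and 4.53 at 280 and 294 kb preceded this site. Its CTCF peak (chr15:62126719-62127333) reached 11.8-fold with a pileup of 85, and its Rad21 peak (chr15:62126667-62127436) 12.4-fold with a pileup of 138. A shared site with summits 431 bp apart (5.63 and 6.26) and a cohesin-only peak of 4.88 lay at 317 and 319 kb. The site at 343 kb had fold enrichments of 4.56 and 5.46, and the one at 346 kb 9.63 (CTCF) and 7.47 (Rad21), with pileups of 115 and 130. A cohesin-only peak of 3.69 at 352 kb, a shared site at 361 kb (3.30 for CTCF, 8.87 for Rad21) and a cohesin-only peak of 2.83 at 365 kb closed the row. No Rad21 peak followed for 178.514 kb.

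The best motif matches of the 3 CTCF peaks of highest fold enrichment in Pvt1 are shown because these peaks ranked above the middle of the CTCF list without a called motif. The match is in capitals, along its own strand, with 20 bp on either side.
Site at 310 kb, minus strand, chr15:62127071-62127130: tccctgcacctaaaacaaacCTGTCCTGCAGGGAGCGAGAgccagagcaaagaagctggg
Site at 346 kb, minus strand, chr15:62162882-62162941: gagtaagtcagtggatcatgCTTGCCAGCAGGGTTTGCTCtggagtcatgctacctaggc
Site at 121 kb, minus strand, chr15:61938281-61938340: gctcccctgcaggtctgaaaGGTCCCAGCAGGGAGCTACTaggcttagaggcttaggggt
They scored 9.63, 8.21 and 3.62 bits and matched the consensus at 13, 13 and 11 of 20 positions. All 3 keep a run of G in the middle of the motif, and none reached the 14.2 bits of the 1% threshold. Over the autosomes, shared CTCF peaks without a motif had a median fold enrichment of 5.04 and those with one 14.3.

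Beyond Pvt1, the distal end of the window held the site of highest fold enrichment in the locus for both factors, a shared site at 818 kb. Its CTCF peak (chr15:62634354-62634817) had a fold enrichment of 18.2 (87.3 percentile) and a pileup of 151 fragments. Its Rad21 peak (chr15:62634280-62634741) had a fold enrichment of 24.2 (98.8 percentile) and a pileup of 277. By pileup both of its peaks were lower than those upstream of Myc (151 against 402 for CTCF and 277 against 369 for Rad21), so which of these sites is the stronger depends on the measure. Of the other shared sites, the one at −43.0 kb ranked higher by CTCF (7.97-fold, 59.8 percentile) than by Rad21 (3.65-fold, 26.7 percentile). Next to it, at −45.9 kb, lay a shared site of 4.40 (CTCF) and 5.42 (Rad21). Downstream of Pvt1, shared sites at 544, 581 and 759 kb had CTCF fold enrichments from 3.16 to 3.57 and Rad21 fold enrichments from 4.31 to 5.31.

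The Rad21 summits at the 3 motifs lay close to the motif centre. The signed distances were −17.5 bp at the Myc motif, 4.5 bp at −43.0 kb and −1.5 bp at 818 kb, where positive values lie on the 3′ side of the motif. The median was −1.5 bp (n = 3), while over 22773 autosomal shared sites with a motif it was 17.5 bp, with 69.1% on the 3′ side. With 3 motifs no difference can be read from this.

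The 2 Lone CTCF sites both lay downstream of Pvt1, at 429 kb (fold enrichment 6.60, chr15:62245343-62245647) and 480 kb (3.99, chr15:62296626-62296918), inside the stretch without Rad21 peaks. Neither had a motif at the 1% threshold, and the first had a match of 10.7 bits.

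Cohesin-only sites outside Pvt1 were led by a pair of distal peaks. The peak at 548 kb (chr15:62364696-62365244) had a fold enrichment of 9.23 and a pileup of 64, and the peak at 727 kb (chr15:62543815-62544348) 8.60 and 73. They ranked at the 76.4 and 74.4 percentiles of all Rad21 peaks. The next were at −71.8 kb (4.31), 32.4 kb (3.65) and 864 kb (3.65), and the remaining 3, from 603 to 728 kb, lay between 2.75 and 3.48. The peak at 32.4 kb was the only one listed between the Myc gene and the Pvt1 promoter peak. The 21 cohesin-only peaks had a median fold enrichment of 3.69 (3.32 to 4.88), and the autosomal cohesin-only peaks 3.48.

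Cohesin-only sites in liver are known to lie at enhancers bound by liver factors, so short binding strings were counted within 100 bp of the summit, on both strands. The C/EBP string TTGCNNAA was present at 7 of 21 cohesin-only peaks (33.3%, Wilson interval 17.2 to 54.6%), against 12.9% of autosomal cohesin-only peaks. It was present at 3 of 24 shared Rad21 peaks of the locus (interval 4.3 to 31.0%) and at 8.11% of autosomal ones. The forkhead string TGTTTAC was present at 1 of 21 cohesin-only peaks (autosomes 4.75%). The HNF4 string AAAGTCCA was found at 0 of 21 (interval up to 15.5%, autosomes 2.69%). C/EBP factors, the forkhead proteins Foxa and HNF4 are transcription factors of hepatocytes, and a match is a description of the sequence only.

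A few cohesin-only summits are shown, with strings in capitals, plus strand. They are the highest by fold enrichment in Pvt1 (94.5 kb), the one with strings of both kinds (319 kb) and the highest distal one (548 kb), which holds none.
Site at 94.5 kb, chr15:61911359-61911559: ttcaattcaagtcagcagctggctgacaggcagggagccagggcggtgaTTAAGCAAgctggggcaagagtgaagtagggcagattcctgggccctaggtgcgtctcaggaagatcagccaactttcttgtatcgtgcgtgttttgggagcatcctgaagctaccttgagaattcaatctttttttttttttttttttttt
Site at 319 kb, chr15:62135558-62135758: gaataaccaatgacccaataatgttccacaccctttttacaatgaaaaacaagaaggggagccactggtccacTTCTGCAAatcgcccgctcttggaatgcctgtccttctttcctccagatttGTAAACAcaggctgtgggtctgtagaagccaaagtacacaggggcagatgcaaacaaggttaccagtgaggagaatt
Site at 548 kb, chr15:62364891-62365091: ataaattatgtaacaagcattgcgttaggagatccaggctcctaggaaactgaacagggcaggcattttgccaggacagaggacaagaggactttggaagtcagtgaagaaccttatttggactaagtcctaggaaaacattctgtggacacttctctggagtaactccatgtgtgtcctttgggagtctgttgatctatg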

How the data were processed

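Livers of 8-week-old female CD-1 mice gave 4 CTCF and 3 Rad21 ChIP-seq libraries. Reads were aligned to mm9 by the authors using Bowtie2, merged by antibody, and passed to MACS2 for peak calling. For every peak, the lists the authors deposited hold a score, a fold enrichment (ratio of summit pileup to local background, each plus 1), the −log10 p and −log10 q, and the summit position. Because libraries were pooled, variation between mice cannot be estimated, read depth per library is not in these lists, and no test was run. Binding below the calling threshold is not seen.

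The members, gene set and motif strings were chosen with earlier results of these data known. Peaks were named if they lay within 5 kb of the Myc TSS, next to it or in Pvt1, or were among the 5 strongest shared, 5 cohesin-only or 3 Lone CTCF peaks elsewhere (only 2 of the last exist). Percentiles are ranks by fold enrichment among the 67010 CTCF or 67228 Rad21 peaks of the 19 autosomes. The CTCF matrix was learned within 50 bp of the summits of 1000 strong peaks on even-numbered autosomes, with flanks of odd-numbered ones as background. Summit pileup and background were solved from fold enrichment and p, and a whole-number pileup within 0.001 on the −log10 p scale was found for 99.8% of CTCF and 99.99% of Rad21 peaks. Intervals are 95% Wilson or order-statistic intervals and cover counting error only. Sequence and annotation (NCBIM37, GENCODE) were handled in samtools 1.23.1 and pysam 0.24.0, and values computed with numpy 2.4.6, pandas 2.3.3 and scipy 1.17.1. Overlap, motif and pileup steps were tested on simulated data. Alternatives were peaks of −log10 q 10 or more, peaks of 5-fold or more, flanks of 250 or 1000 kb, overlap of 50%, summits within 100 bp, and other motif settings. Pileup in place of fold enrichment, and a shorter Pvt1, were added after seeing the data.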

Additional observations from a re-analysis of the deposited data

How the results depend on the processing

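No paired analysis was possible because the libraries of each antibody were pooled before peaks were called. Of 45 alternative values, 30 stayed close to the reported value, meaning within 1.5 times for counts, within the interval for shares and median fold enrichments, within 10 points for percentiles, and within the range of the 3 values for the Rad21 to motif distance, which is too few for an interval. Flanks of 250 or 1000 kb, overlap of 50% and the motif settings were among those for each result they were run on, although the 5% threshold raised the share of CTCF peaks with a motif from 11.5% to 23.1% (autosomes 62.7%). With a minimum −log10 q of 10 in both lists the locus held 14 CTCF peaks, 7 of them in Pvt1. Of its 30 Rad21 peaks, 63.3% overlapped no CTCF peak that passed the same filter, against 19.5% over the autosomes. A listed but weaker CTCF peak counted as none there. Of the CTCF peaks, 78.6% overlapped a Rad21 peak that passed, against 71.4%. With a minimum fold enrichment of 5 in both lists the locus held 11 CTCF peaks (5 in Pvt1) and 23 Rad21 peaks (14 in Pvt1). The share of CTCF peaks with cohesin was then 72.7%, against 70.3% over the autosomes, so that difference was lost. Of the Rad21 peaks, 65.2% overlapped no CTCF peak of at least 5-fold, against 16.3% over the autosomes. The 65.2% includes 10 Rad21 peaks on a listed CTCF peak under 5-fold, so it is not a share of cohesin-only sites. With summits within 100 bp, 69.2% of CTCF peaks counted as shared (autosomes 60.8%). The filters by q and by fold enrichment leave fewer peaks by construction. With Pvt1 taken to the end of its 2 shorter transcripts it held 9 CTCF and 17 Rad21 peaks. By pileup in place of fold enrichment, the median shared CTCF peak fell from the 35.8 to the 20.9 percentile, while the CTCF and Rad21 peaks upstream of Myc rose to the 95.1 and 97.7 percentiles. Lists of pooled peaks hold no depth per library, so peaks under the threshold of the calls are not seen, and a 0 in the text says only that no peak was listed.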
